A study of Mus musculus with 2 samples.

Results

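The expression of 9 genes was compared in the mouse hippocampus: Pttg1, Nnt, Glo1, Wdfy1, Entpd4, Eps8l1, Rdh13, Eif3j1 and Tmem181b-ps. They were taken by their symbols from a table of 55573 gene rows, in which they fill 10 rows because Nnt is listed 2 times. They were chosen by known variation of their expression between mouse strains, or selected on a large ratio of counts between these same libraries. Their counts are therefore given as a description, with no test.

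RNA sequencing was analysed for 2 hippocampal samples, 1 of Cdh5-CreERT2;CDK5f/f mice and 1 of CDK5f/f mice, and no genotype has a replicate. The study asked which genes differ in the hippocampus when CDK5 is deleted from endothelial cells. The Cdh5-CreERT2;CDK5f/f sample (the mutant library) is labelled as tamoxifen-treated, and carries a Cre recombinase that the endothelial Cdh5 promoter drives and tamoxifen activates. The CDK5f/f sample (the control library) is labelled as untreated, so Cre, tamoxifen and any other difference between the samples cannot be told apart. Both samples carry the floxed CDK5 alleles, and both are labelled strain C57BL/6, with no substrain. Age and the number of mice per sample are not given in the labels, and the series text narrows the tissue to CA1.

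Inbred mouse strains, and the substrains kept apart within C57BL/6, carry fixed differences that can change the level of single genes. Textbook cases are a deletion within Nnt in C57BL/6J mice, a duplication that takes in Glo1 in several strains, and an intronic variant of Gabra2 in C57BL/6J. A gene under such a local difference can stand apart while its neighbours on the chromosome do not, which is why each gene is set beside the genes around it. The table holds counts and no sequence variants, so the strain background of these samples was not tested here. Gene families with near-identical copies need a further comparison, because a read that matches several copies equally well can be given to any of them or dropped.

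The libraries held 18900847 counts in the mutant sample and 19451827 counts in the control sample. At these depths 0 counts allow up to 0.159 CPM (counts per 1e6 library counts) in the mutant library and 0.154 in the control library. Neuronal, CA1, CA3, dentate, glial and endothelial markers were detected in both libraries. The dentate marker Prox1 had 1556 counts in the mutant library and 2046 in the control library. The CA3 marker Cpne7 had 7106 counts in the mutant library and 8687 in the control library. How much of the tissue came from outside CA1 was not tested. The libraries also differed in tissue and sex markers. All 13 choroid plexus markers were higher in the mutant library, none of them at 0 in both, with a summed FPKM of 3903 in the mutant library and 174 in the control library. Xist, the RNA of the inactive X chromosome, had 34 counts in the mutant library and 15070 in the control library, and the Y-linked Ddx3y had 771 and 0. The prolactin gene Prl had 0 counts in the mutant library and 236 in the control library. Their part in the values of the 9 genes was not tested, and in bulk tissue fewer cells of a type and less RNA per cell cannot be told apart.

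The 9 genes were brought together for known strain variation or for a large ratio, and the differences were not large in all of them. A gene was called measured when its FPKM, the count per kilobase of exon and per 1e6 counts of the library, was at least 1 in either library. It was called higher or lower when the log2 ratio of FPKM + 1, mutant minus control, passed 1.5-fold. By this rule 7 of the 9 genes were measured, 3 were higher (Tmem181b-ps, Pttg1 and Rdh13), 2 were lower (Eps8l1 and Eif3j1) and 2 lay within 1.5-fold (Glo1 and Wdfy1). Over all 14778 measured genes 3.65% were higher and 3.16% were lower, 6.81% in all, and nothing is read from the larger share of the 9 genes, since their ratios helped to choose them. Pttg1 and Tmem181b-ps passed the FPKM minimum only through the mutant library, and Eps8l1 and Eif3j1 only through the control library. Nnt and Entpd4 fell below the minimum in both libraries. Just inside 1.5-fold on this scale was Wdfy1 at 0.49, and just outside it was Rdh13 at 0.60. The intervals below are exact 95% intervals for counting error only, and do not cover differences between mice.

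**Figure D1:**
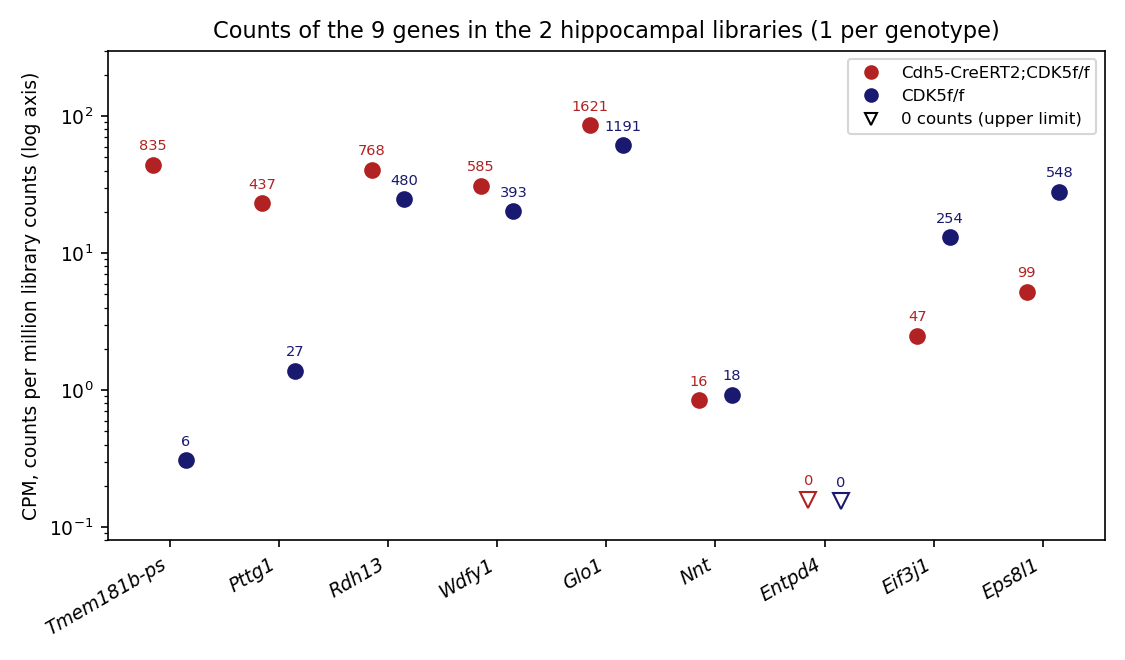
CPM (log axis) of the 9 genes in the Cdh5-CreERT2;CDK5f/f library (red) and the CDK5f/f library (dark blue), with the raw count printed at each point. Tmem181b-ps, with 835 counts in the mutant library and 6 in the control library, lies farthest apart. Entpd4, with 0 counts in both, is drawn as open triangles at the upper limit that 0 counts allow for its row. This is no limit on the level of Entpd4, since reads from stretches identical to Entpd4b cannot be placed.

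Sequences are shown for the genes whose rows lay farthest apart. Of the 9 genes, 4 matched an entry in the RefSeq promoter table (build GRCm38.p6), which covers 250 bases before to 50 after a gene's start. Those of Pttg1, Eps8l1 and Eif3j1 are printed because they belong to genes past 1.5-fold, and the fourth is that of Glo1. Capitals mark a CCAAT box (CCAAT, or ATTGG on the other strand) or a GC box (GGGCGG, or CCGCCC on the other strand), motifs that general promoter-binding factors recognise. The Pttg1 window is chr11:43425932-43426231 on the minus strand, the Eps8l1 window, for the first of 3 listed starts, is chr7:4460447-4460746 on the plus strand, and the Eif3j1 window is chr2:122028330-122028629 on the plus strand.
Pttg1: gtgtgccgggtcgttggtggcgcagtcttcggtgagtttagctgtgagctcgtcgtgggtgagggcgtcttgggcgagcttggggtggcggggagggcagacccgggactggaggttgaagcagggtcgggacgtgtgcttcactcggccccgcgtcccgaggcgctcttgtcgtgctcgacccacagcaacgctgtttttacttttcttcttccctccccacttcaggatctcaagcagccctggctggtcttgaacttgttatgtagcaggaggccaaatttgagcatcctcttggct
Eps8l1: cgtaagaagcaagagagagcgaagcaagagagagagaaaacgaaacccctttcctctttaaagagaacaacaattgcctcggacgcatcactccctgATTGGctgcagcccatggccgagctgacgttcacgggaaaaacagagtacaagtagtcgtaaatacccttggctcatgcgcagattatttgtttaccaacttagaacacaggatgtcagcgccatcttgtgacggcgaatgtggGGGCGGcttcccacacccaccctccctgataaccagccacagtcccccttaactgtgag
Eif3j1: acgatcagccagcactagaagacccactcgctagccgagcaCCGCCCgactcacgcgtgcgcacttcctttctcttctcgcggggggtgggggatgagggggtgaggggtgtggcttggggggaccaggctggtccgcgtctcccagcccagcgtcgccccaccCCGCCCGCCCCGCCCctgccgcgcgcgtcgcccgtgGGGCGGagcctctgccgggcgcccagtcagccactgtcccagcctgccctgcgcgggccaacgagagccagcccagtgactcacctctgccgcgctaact

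The Eif3j1 window was 72.7% G and C with 31 CpG sites, and held 5 GC boxes, at -209, -86, -82, -77 and -50 from the gene's start, of which neighbouring ones share bases. The Eps8l1 window was 51.3% G and C with 14 CpG sites and held a CCAAT box at -153 and a GC box at -9. The Pttg1 window was 60.3% G and C with 20 CpG sites and held none of the motifs searched. This window follows the RefSeq start and lies wholly within the span of the Pttg1 row, chr11:43420250-43426251. Bases before the start of that row were thus not searched. The search read both strands, and of 32851 promoter windows of this length 37.4% held a CCAAT box, 35.7% a GC box, 13.6% a TATA box (TATAAA, or TTTATA on the other strand), 7.15% an E-box (CACGTG) and 1.79% a cyclic AMP response element (TGACGTCA). A match is only a run of letters, and says nothing of whether a factor binds there.

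Pttg1 encodes securin, which holds separase inactive until chromosomes part in mitosis, and the gene is expressed well beyond dividing cells. It lies at chr11:43420250-43426251 on the minus strand (GRCm38, as for all coordinates here). Pttg1 had 437 counts in the mutant library and 27 in the control library, or an FPKM of 11.6 and 0.69. Scaled to the library totals, this was a ratio of 16.7 (95% counting interval 11.3 to 25.6), the 11th highest log2 ratio of the 13587 genes that reached 100 counts in the libraries together. The genes on either side did not share this difference. Slu7, a splicing factor gene 7493 bases away, had 1112 counts in the mutant library and 1119 in the control library (ratio 1.02, 0.940 to 1.11). Gabrb2, a GABA-A receptor subunit gene 791222 bases to the other side, had 1780 in the mutant library and 1841 in the control library. All 6 measured neighbours within 1 Mb lay between -0.17 and 0.11 on the log2 scale, against 2.89 for Pttg1.

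The list around securin was made up of separase and of cohesin with its regulators. Of its 9 other measured genes 0 passed 1.5-fold, against 6.81% of all measured genes, with a median log2 ratio of -0.01 against 0.00 over all measured genes. The cohesin subunit Stag1 was at -0.17 and Smc1a, a core subunit gene on the X chromosome, at 0.14. Espl1, separase itself, fell below the FPKM minimum with 59 counts in the mutant library and 35 in the control library (ratio 1.73, 1.12 to 2.72). The genes with log2 ratios nearest to that of Pttg1 were Folr1, with 490 counts in the mutant library and 32 in the control library, and Cldn2, with 503 and 21. Folr1 is among the 13 choroid plexus markers above, and Cldn2 encodes a claudin of leaky epithelia. Whether the choroid plexus RNA has a part in the Pttg1 value was not tested.

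Tmem181b-ps is annotated as a transcribed unprocessed pseudogene, a copied gene that keeps exons and introns, at chr17:6438524-6467022 on the minus strand. It had 835 counts in the mutant library and 6 in the control library (FPKM 10.6 and 0.07). The ratio was 143 (65.5 to 391), and its log2 ratio of 3.43 was the 8th highest among genes with at least 100 counts. Its parent in sequence, Tmem181a, which encodes a transmembrane protein, had 1211 counts in the mutant library and 1211 in the control library (ratio 1.03, 0.950 to 1.12). A further copy, Tmem181c-ps, had 1 count in the mutant library and 5 in the control library. The difference thus sat in 1 of the 3 rows.

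The copies are close enough that short reads may not separate them. The transcript alignment of Tmem181b-ps to Tmem181a was 98.8% identical over 1680 bases with 14 mismatches, and that to Tmem181c-ps 99.6% identical over 759 bases with 3. Over 1412 aligned coding bases of Tmem181a, the Tmem181b-ps transcript differed at 7. The stretch printed is 120 coding bases long and holds 3 of the differences, in capitals, because these are the letters by which a read could be told to come from one row or the other. It spans 2 exons, at chr17:6280608-6286951 on the plus strand for Tmem181a and chr17:6460686-6467012 on the minus strand for Tmem181b-ps.
Tmem181a: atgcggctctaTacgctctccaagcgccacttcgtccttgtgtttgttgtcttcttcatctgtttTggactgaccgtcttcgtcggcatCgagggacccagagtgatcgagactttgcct
Tmem181b-ps: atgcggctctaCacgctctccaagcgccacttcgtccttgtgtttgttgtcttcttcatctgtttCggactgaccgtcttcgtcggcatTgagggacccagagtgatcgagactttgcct

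Counted from 1 at the 5′ end of the printed stretch, the differences from Tmem181a to Tmem181b-ps were T12C, T66C and C90T. With the counts of the 3 rows added, the ratio was 1.72 (1.61 to 1.85), from 2047 counts in the mutant library and 1222 in the control library. Tmem181b-ps made up 40.8% of that sum in the mutant library and 0.491% in the control library. Here the sum kept part of the difference, since the Tmem181a row was equal in both libraries.

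The rows around Tmem181b-ps differed far less than Tmem181b-ps itself. The nearest measured genes were Dynlt1a, a dynein light chain gene, with 90 counts in the mutant library and 111 in the control library, and Ezr, which encodes the membrane-to-actin linker ezrin, with 1964 and 1647 (ratio 1.23, 1.15 to 1.31). All 4 measured rows on the Ezr side were higher in the mutant library, Rsph3b with a ratio of 1.66 (1.25 to 2.22), Rps6ka2 with 1.39 (1.28 to 1.51) and Tagap1 with 1.21 (1.07 to 1.36), and on the log2 scale of FPKM + 1 none of them passed 1.5-fold. This side was singled out after the values were seen. On the other side Snx9 had a ratio of 1.29 (1.09 to 1.51) and Synj2 1.19 (1.11 to 1.26), and other rows there were lower, such as Zdhhc14 at 0.878 (0.803 to 0.960). Of all 14 measured rows within 1 Mb, 8 lay above 0 and 6 below 0 on the log2 scale. Gm26848 overlaps Tmem181b-ps on the opposite strand and had 37 counts in the mutant library and 27 in the control library. Of the 14 measured rows within 1 Mb, 1 passed 1.5-fold, the processed pseudogene Gm10231, which was lower with 12 counts in the mutant library and 24 in the control library. The genes nearest to Tmem181b-ps in log2 ratio were 1500015O10Rik, with 838 counts in the mutant library and 61 in the control library, and Kcnj13, a potassium channel gene among the choroid plexus markers, with 532 and 26.

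Eif3j1 and Eif3j2 encode the j subunit of translation initiation factor eIF3, the complex that helps load the small ribosomal subunit onto mRNA. Eif3j1 lies at chr2:122028546-122056598 on the plus strand. It had 47 counts in the mutant library and 254 in the control library (FPKM 0.43 and 2.24). The ratio was 0.190 (0.136 to 0.261), and its log2 ratio of -1.18 was the 20th lowest among genes with at least 100 counts. Eif3j2, on chromosome 18, went the other way, with 290 counts in the mutant library and 160 in the control library (ratio 1.87, 1.53 to 2.28).

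The 2 transcripts matched at 99.4% over 2379 bases, with 4 mismatches. Their summed counts were 337 in the mutant library and 414 in the control library, a ratio of 0.838 (0.723 to 0.970). Eif3j1 took 13.9% of the sum in the mutant library and 61.4% in the control library. The sum thus lay far closer to equal than the Eif3j1 row alone, but its interval did not reach 1. The split between the rows differed as well. The treatment of reads that match both copies is not stated in the sources used here, which leaves each row alone uncertain.

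Besides Eif3j1, 13 subunit genes of eIF3 were measured, and 1 passed 1.5-fold, Eif3j2 itself at 0.74, a share near the 6.81% of all measured genes. The median was 0.08, with Eif3b, a scaffold subunit, at 0.20, Eif3l at 0.18 and Eif3e at -0.18. Spg11, a lysosome-related gene that overlaps the 3′ end of Eif3j1 on the opposite strand, had 560 counts in the mutant library and 621 in the control library (ratio 0.928). Ctdspl2, on the other side, had 333 in the mutant library and 417 in the control library. B2m, the shared light chain of MHC class I, was the nearest measured gene beyond Spg11 without overlap, with 727 and 998 counts and a ratio of 0.750 (0.680 to 0.826). Of 27 measured rows within 1 Mb, 1 passed 1.5-fold, the processed pseudogene Gm14000, with 0 counts in the mutant library and 11 in the control library. The genes nearest to Eif3j1 in log2 ratio were Gm11942, with 48 counts in the mutant library and 120 in the control library, and Dusp1, an activity-induced phosphatase gene, with 379 and 969.

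**Figure D2:**
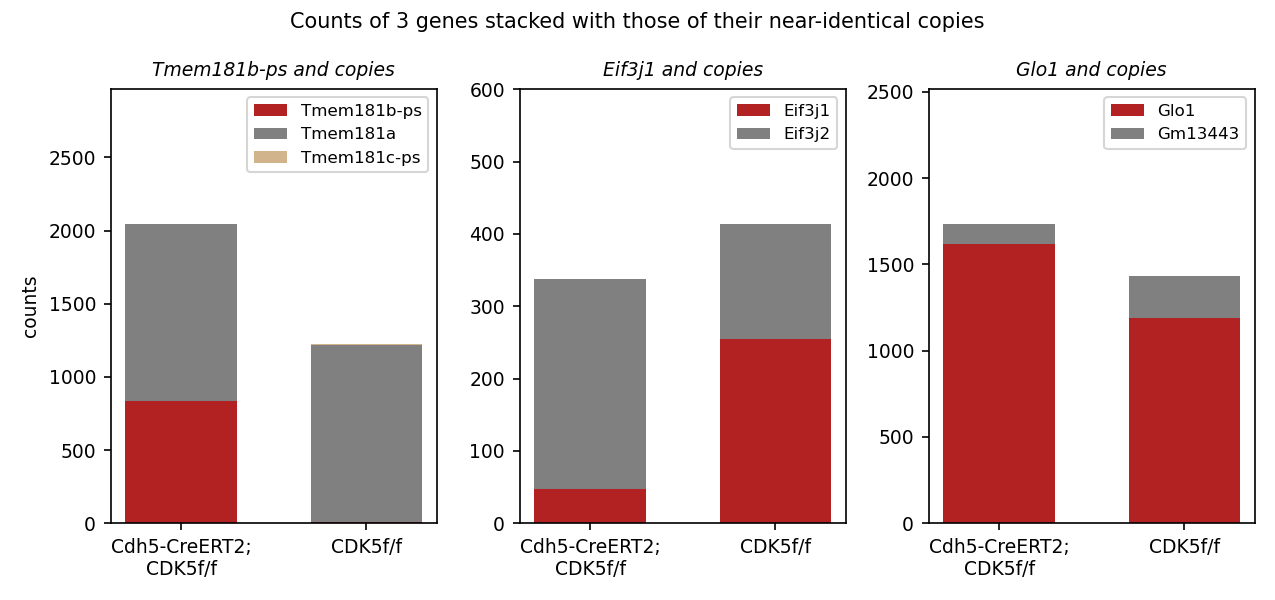
Counts of Tmem181b-ps, Eif3j1 and Glo1 (red) stacked with those of their near-identical copies (grey and tan), with the Cdh5-CreERT2;CDK5f/f library on the left and the CDK5f/f library on the right of each panel. The Eif3j1 and Eif3j2 stacks total 337 and 414 counts although the red share is 13.9% and 61.4%, whereas the Tmem181 stacks total 2047 and 1222.

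Eps8l1 and Rdh13 are neighbours on chromosome 7 and lay on opposite sides. Eps8l1, at chr7:4460674-4480487 on the plus strand, encodes a relative of the actin regulator EPS8, which works with ABI and SOS proteins in signalling to Rac. Eps8l1 had 99 counts in the mutant library and 548 in the control library (FPKM 0.87 and 4.67). The ratio was 0.186 (0.149 to 0.231), and its log2 ratio of -1.60 was the 11th lowest among genes with at least 100 counts. It had no near-identical copy by the rule used here, which passes over shorter and less alike matches.

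Rdh13, at chr7:4424770-4445649 on the minus strand, encodes a mitochondrial retinol dehydrogenase. It had 768 counts in the mutant library and 480 in the control library (FPKM 6.16 and 3.74). The ratio was 1.65 (1.47 to 1.85), and the log2 ratio of 0.60 lay just past the 1.5-fold line. Between the genes, which are 15025 bases apart, lies Gm15494, an antisense row that ends 48 bases from Rdh13 and runs over the start of Eps8l1 on the opposite strand. Gm15494 had 39 counts in the mutant library and 12 in the control library (ratio 3.34, 1.72 to 7.02). Along this stretch the order was thus higher for Rdh13, higher for the antisense row and lower for Eps8l1. The sources used here do not state if counting was stranded, so reads in the overlap cannot be told apart.

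The next genes on both sides had near-equal counts. Ppp1r12c, a myosin phosphatase subunit gene 1033 bases beyond Eps8l1, had 2487 counts in the mutant library and 2577 in the control library (ratio 0.993, 0.940 to 1.05). Leng9, the nearest measured gene on the other side of Rdh13, had 161 in the mutant library and 148 in the control library. Within 1 Mb of Eps8l1, 47 rows were measured, Rdh13 among them, of which 3 were higher and 1 was lower, with a median of 0.03. Apart from Rdh13 and Gm15494 these were Cox6b2, with 51 counts in the mutant library and 27 in the control library, and Gm44877, with 8 and 17.

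The relatives of both genes were counted too. Of 6 other measured EPS8 family and partner genes 1 was higher, against 3.65% of all measured genes. This was Eps8l2, with 184 counts in the mutant library and 86 in the control library (ratio 2.20), the opposite direction to Eps8l1. The median of the 6 was -0.05, and the ABI partners Abi1 and Abi2 lay at -0.32 and -0.27. Of 10 other measured retinoid genes 2 were higher, against the same 3.65%. Among the 2 was Rdh5, which makes 11-cis retinal in the retinal pigment epithelium, with 392 counts in the mutant library and 68 in the control library. The median of the 10 was 0.28, with Dhrs3, a retinal reductase gene, at 0.57 and Aldh1a2, a retinoic acid synthesis gene, at 0.52. The lists were chosen with earlier results of these data known, so nothing is read from these shares. The 13 choroid plexus markers were higher in the same library, and their part in the retinoid values was not tested. The genes nearest in log2 ratio were Bub1b, a spindle checkpoint gene with 0 counts in the mutant library and 164 in the control library, and Atp6v1c1, a proton pump subunit gene with 118 and 621, for Eps8l1. Those for Rdh13 were Nt5dc2, with 173 counts in the mutant library and 102 in the control library, and Gm19935, with 162 and 104.

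Glo1 encodes glyoxalase 1, which detoxifies methylglyoxal made by glycolysis, and lies at chr17:30584936-30626871 on the minus strand. Glo1 had 1621 counts in the mutant library and 1191 in the control library (FPKM 7.09 and 5.06). The ratio was 1.40 (1.30 to 1.51), within 1.5-fold on the log2 scale at 0.42. This is above 1 beyond counting error, but not the size of the Pttg1 or Eps8l1 difference. A near-identical row on chromosome 2, Gm13443, went the other way, with 115 counts in the mutant library and 241 in the control library (ratio 0.491, 0.390 to 0.616). It matched Glo1 at 96% over 575 bases. The sum of both rows gave a ratio of 1.25 (1.16 to 1.34), from 1736 counts in the mutant library and 1432 in the control library.

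In mice that carry the duplication around Glo1, parts of the genes beside it are copied as well, so these were listed. Btbd9, 8448 bases away, had 2470 counts in the mutant library and 2530 in the control library (ratio 1.00, 0.950 to 1.06). Glp1r, the receptor of glucagon-like peptide 1, had 106 in the mutant library and 196 in the control library (ratio 0.557, 0.435 to 0.709), a log2 ratio of -0.47. Dnah8, a dynein heavy chain gene that overlaps Glo1, had 20 and 16 counts and fell below the FPKM minimum. None of the 3 measured genes of this list passed 1.5-fold on the log2 scale of FPKM + 1, and their median was -0.02. With a pseudocount of 0.1 Glp1r, at -0.77, did pass. The whole neighbourhood of 17 measured rows had 0 past 1.5-fold and a median of 0.00. The other enzymes that clear reactive carbonyls lay near Glo1 or below it, with Aldh2, the mitochondrial aldehyde dehydrogenase, at 0.31, Hagh, which completes the glyoxalase reaction, at 0.20 and Glod4 at -0.11. Nearest to Glo1 in log2 ratio was Ech1, with 817 counts in the mutant library and 619 in the control library.

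Wdfy1, at chr1:79702262-79776143 on the minus strand, encodes a FYVE-domain endosomal protein that helps recruit the adaptor TRIF to toll-like receptors. It had 585 counts in the mutant library and 393 in the control library, or an FPKM of 4.77 and 3.11. The ratio of counts was 1.53 (1.35 to 1.75), and the log2 ratio of FPKM + 1 was 0.49, within 1.5-fold because the pseudocount of 1 shrinks it. With a pseudocount of 0.1 it was 0.60. Mrpl44, a mitochondrial ribosome gene that overlaps its 5′ end on the opposite strand, had 369 counts in each library. Scg2, a secretogranin gene, had 3159 counts in the mutant library and 3368 in the control library, and Serpine2, a protease inhibitor gene, had 2720 and 3011. Wdfy1 thus stood above both sides, and 0 of its 7 measured neighbours passed 1.5-fold. In the toll-like receptor list 0 of 7 other measured genes passed 1.5-fold. Tlr3, which senses double-stranded RNA, had 140 counts in the mutant library and 224 in the control library, at -0.41, and Ticam1, the gene of TRIF, was at 0.38. Scube3, with 262 counts in the mutant library and 143 in the control library, and Cd63, with 935 and 665, were nearest to Wdfy1 in log2 ratio.

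Nnt encodes the transhydrogenase that makes NADPH in the mitochondrial matrix, and C57BL/6J mice carry a deletion of several of its exons. It lies at chr13:119335448-119408997 on the minus strand. Nnt had 16 counts in the mutant library and 18 in the control library, an FPKM of 0.12 and 0.13, with a ratio of 0.915 (0.436 to 1.90). A second row under the same symbol, at chr13:119335528-119408952, had 0 counts in both. The rows overlap almost wholly on the same strand. How reads that lie in both rows were counted is not stated in the sources used here. The counts were thus low in both libraries, with no difference detectable, but the level of Nnt cannot be read from them. Counts per gene do not show which exons the reads came from, so the deletion itself was not tested. Its neighbours were well covered, with 1021 counts in the mutant library and 1121 in the control library for Paip1, a translation regulator gene 19604 bases away, and 256 and 289 for Fgf10, a growth factor gene on the other side.

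The neighbourhood of Nnt leaned one way. All 13 measured rows lay below 0, from -0.47 to -0.06, with a median of -0.16, and 0 passed 1.5-fold on this scale. For most of these rows the counting interval of the ratio reached 1, as for Paip1 (0.860 to 1.02) and Fgf10 (0.767 to 1.08). Tmem267 had 268 counts in the mutant library and 422 in the control library, a ratio of 0.654 (0.559 to 0.764). Ccl28, a chemokine gene, had 76 in the mutant library and 141 in the control library, a ratio of 0.555 (0.414 to 0.738). Hmgcs1, an early enzyme of cholesterol synthesis, had 3504 in the mutant library and 4173 in the control library, a ratio of 0.864 (0.826 to 0.904). Tmem267, Ccl28 and Hmgcs1 were named after their values were seen, and no test was made of the lean. Of 13 other measured genes of mitochondrial NADPH supply and peroxide removal 0 passed 1.5-fold, with a median of -0.05, and the glutathione peroxidase genes Gpx4 and Gpx1 were at 0.30 and 0.25.

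Entpd4, at chr14:69337174-69367270 on the plus strand, encodes a nucleoside diphosphohydrolase of the Golgi apparatus and lysosomes. Entpd4 had 0 counts in both libraries. Its transcript was identical over 3589 bases to Entpd4b, which had 18 counts in the mutant library and 9 in the control library, and over 1133 bases to Gm27177, with 3 and 0. Their sum was 21 counts in the mutant library and 9 in the control library, a ratio of 2.40 (1.05 to 5.96). Gm27177 overlaps Entpd4b on the opposite strand, so it need not be a separate copy of Entpd4. Gm16867, an opposite-strand row over Entpd4, also matched the Entpd4 transcript over 1133 bases. It was left out of the sum only because it overlaps Entpd4, so the ratio depends on which rows are added. A read from an identical stretch cannot be placed in 1 of these rows, so the level of Entpd4 cannot be read from its row, and the sum is small.

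The nearest measured genes on each side of Entpd4 were well covered but not adjacent to it. Slc25a37, the mitochondrial iron importer gene mitoferrin 1, lies 52062 bases away. It had 694 counts in the mutant library and 774 in the control library. R3hcc1, 330037 bases to the other side, had 251 counts in the mutant library and 278 in the control library. Gm16867, which overlaps Entpd4 on the opposite strand, had 17 counts in the mutant library and 0 in the control library, below the FPKM minimum. Of 13 measured rows 1 was higher, the miRNA row Gm44340 with 3 counts in the mutant library and 0 in the control library, too few to compare. The 6 other measured genes of the family had a median of 0.04, with Entpd2, an astrocyte-lineage ectonucleotidase gene, at 0.31 and Entpd3 at -0.12, and 0 passed 1.5-fold.

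The neighbourhoods of the 9 genes were also counted together. Leaving the 9 genes out, 490 different rows lay within 1 Mb of them, of which 143 were measured, and 3 were higher and 3 lower past 1.5-fold. That is 4.20% of the measured rows, against 6.81% of all measured genes. Of the 133 rows with at least 100 counts over both libraries, 0 passed 1.5-fold, against 2.54% of all genes with as many counts (1.7% higher and 0.839% lower). This 0 depends on the pseudocount of 1, which shrinks the ratios of weakly expressed genes. By the ratio of counts alone 6 of the 133 passed 1.5-fold, against 6.32% of all genes with as many counts. These were Stc1 at 1.75, Rsph3b at 1.66, Rsph1 at 1.59, Tmem267 at 0.654, Glp1r at 0.557 and Ccl28 at 0.555. The median log2 ratio was -0.02 over the measured neighbours and 0.00 over all measured genes. Of the 9 neighbourhoods only those of Eps8l1 and Rdh13, which overlap, held a measured gene of the 9 other than their own.

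**Figure D3:**
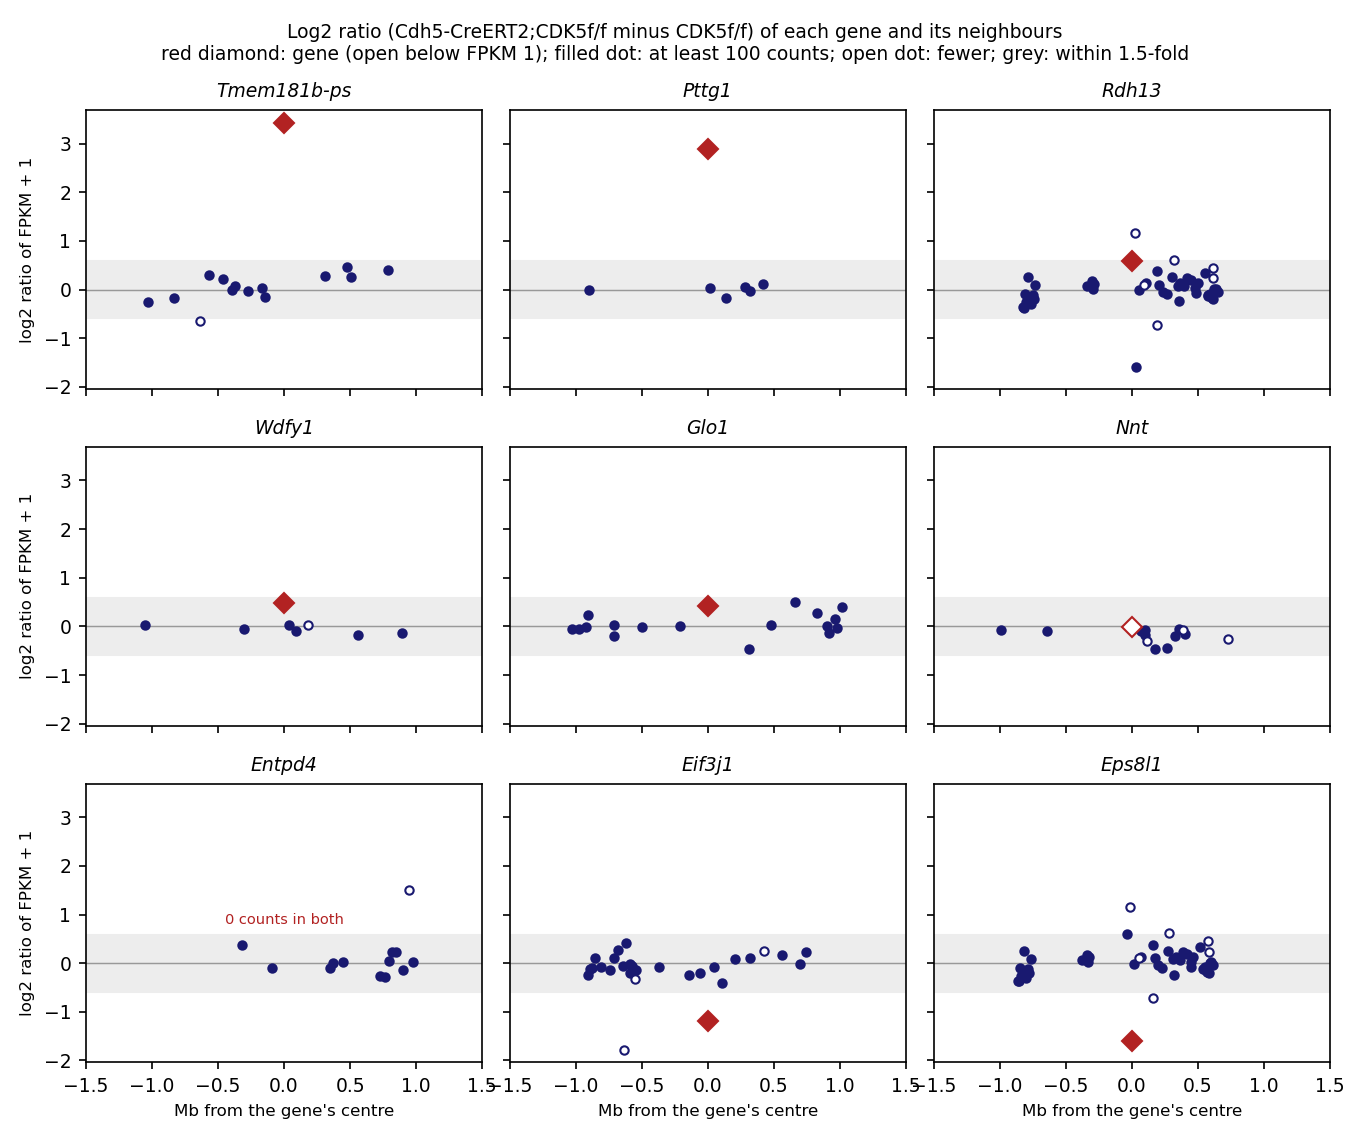
Log2 ratio of FPKM + 1 (Cdh5-CreERT2;CDK5f/f minus CDK5f/f) of each gene (red diamond, open where below the FPKM minimum) and of the measured rows within 1 Mb (dots, open under 100 counts), by the distance of their centres in Mb. Tmem181b-ps at 3.43 and Pttg1 at 2.89 lie above, and Eif3j1 at -1.18 and Eps8l1 at -1.60 lie below, the grey band of 1.5-fold that holds nearly all their neighbours. Eps8l1 and Rdh13 appear as dots in each other's panels.

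Genes of related function were counted for the 9 genes together. Over the 11 lists, 80 genes other than the 9 were measured, and 4 were higher past 1.5-fold (among them Eps8l2, Rdh5 and Eif3j2) and 0 lower. That is 5% against the 6.81% of all measured genes. One list held further genes whose level or sequence is known to differ between mouse strains or substrains, and 0 of its 5 measured genes passed 1.5-fold with the pseudocount of 1, with a median of -0.05. Gabra2, the GABA-A receptor subunit gene with a known intronic variant in C57BL/6J, came closest, with 2212 counts in the mutant library and 3452 in the control library, a ratio of 0.659 (0.625 to 0.696) and a log2 ratio of -0.57. With a pseudocount of 0.1 Gabra2 was at -0.60, past 1.5-fold. The potassium channel gene Kcnj9 was at 0.07. Mmrn1 had 0 counts in both libraries.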

How the data were processed

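The authors deposited 1 table with raw counts per gene and FPKM for both libraries. Tools named in the submitters' notes are HISAT2 2.0.1, HTSeq 0.6.1, cutadapt 1.9.1 and DESeq2, and the build named is mm9. The table's coordinates are nonetheless GRCm38: of 55394 gene IDs shared with GENCODE M21, 55181 had the same chromosome, start and end. The FPKM that the authors deposited equalled the count divided by kilobases of exon and by library counts in units of 1e6, within 0.005. Strand handling and multiple matches are not given in the sources used here.

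Ratios of counts per library total, Cdh5-CreERT2;CDK5f/f over CDK5f/f, were computed with exact conditional 95% intervals (Clopper-Pearson). Log2 ratios used FPKM + 1, for genes that reached FPKM 1 in either of them. Neighbours are rows that overlap the span of a gene extended by 1 Mb on each side. A near-identical copy is a row that does not overlap the gene and matches, at 95% identity or more, 200 or more bases that make up 50% or more of the shorter transcript. Matches on either strand were taken. The 9 genes and all lists were chosen with earlier results of these data known. The genes named are the 9, the nearest measured gene on each side, rows that overlap them, copies, the 2 genes nearest in log2 ratio with at least 100 counts, and up to 4 genes per list with the largest log2 ratios in size. Other genes were named after their values were seen. Some genes that this rule names are not reported here. No test was made, since each genotype has 1 library. Alternatives were another pseudocount, filter, fold, window and scaling. Ratios, counting intervals and calls were tested on simulated counts that held counting error only. The copy, neighbourhood, list and sequence steps were not tested in this way. Python 3.11.15, numpy 2.4.6, pandas 2.3.3, scipy 1.17.1, matplotlib 3.10.9, BLAST 2.17.0, R 4.3.3 and, for TMM factors only, edgeR 4.0.16 were used.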

Additional observations from a re-analysis of the deposited data

How the results depend on the processing

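Every value here rests on 1 library per genotype, so no library could be left out and differences between mice cannot be told apart from those of genotype. No paired analysis was possible because each genotype has 1 library and no test was made. Median-of-ratios, TMM and a total without choroid plexus, mitochondrial and sex-chromosome genes changed the ratios by factors of 0.992, 1.00 and 1.00. A pseudocount of 0.1 moved the log2 ratios of Pttg1 to 3.88, Eps8l1 to -2.30, Eif3j1 to -2.14 and Tmem181b-ps to 5.97, and took Wdfy1 past 1.5-fold. The genes past 1.5-fold, 539 higher and 467 lower, became 929 and 808 with a pseudocount of 0.1, 167 and 126 at an FPKM of at least 5, 231 and 114 with at least 100 counts, and 239 and 201 at 2-fold. The neighbours past the line, 6 of 143, became 2 of 31 within 0.25 Mb, 14 of 239 within 2 Mb, 14 with a pseudocount of 0.1, 0 of 133 with at least 100 counts and 3 at 2-fold. The list genes past 1.5-fold, 4 of 80, became 9 with a pseudocount of 0.1. Against the sums with copies, the row alone gave 1.40 for Glo1, 0.190 for Eif3j1 and 143 for Tmem181b-ps. By the ratio of counts in place of FPKM + 1, an alternative chosen after seeing the data, 518 genes were higher and 341 lower, and 6 of the 133 neighbours with at least 100 counts passed 1.5-fold. No value recomputed for a gene past 1.5-fold changed direction. Counts under 100, as for Nnt, Entpd4 and Gm15494, limit what can be read from single rows.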
